A study of Mus musculus with 12 samples.

Results

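The clotting and complement proteins of plasma are made and secreted largely by hepatocytes, and 36 of their genes are described here in mouse liver 8 h after an ER stress challenge. They comprise 21 coagulation genes and 15 complement genes, listed by name. A gene was read through the array probesets (groups of probes for 1 transcript) that the platform annotation assigns to that gene alone, and the brightest on average was used. This left 34 measured genes of 18193 on the array, 20 of coagulation and 14 of complement. Cpb2, a carboxypeptidase that slows fibrinolysis, and C3, the central component of complement, had no probeset assigned to them alone and were not analysed here. Of the 34, 27 had 1 probeset and 7 had several.

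Total RNA from whole liver homogenate was hybridised to 12 Affymetrix arrays, 1 animal on each. Mice without ATF6α (Atf6a-/-), an ER-anchored transcription factor that is cleaved upon ER stress, or wild-type mice were injected with tunicamycin (TM), an inhibitor of N-linked glycosylation. The 4 groups of 3 animals were Atf6a-/- with TM, Atf6a-/- with vehicle, wild-type with TM and wild-type with vehicle, with TM at 2 mg/kg in 150 mM dextrose, dextrose alone as the vehicle, and sacrifice at 8 h. Age and sex varied among the animals and all were fasted before sacrifice. The deletion is not confined to the liver, and the bulk RNA cannot separate fewer cells of a type from less RNA per cell. Values are log2 expression, so a difference of 1 is a 2-fold difference. A gene was called higher or lower at a limma p below 0.05 after Benjamini-Hochberg adjustment and a change over 1.5-fold.

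Coagulation proceeds through serine proteases that activate each other on membranes and end in thrombin, which turns fibrinogen into fibrin, while anticoagulant proteins restrain them. Complement is started by antibodies, by lectins such as mannose-binding lectin, or spontaneously, converges on C3 and C5, and ends in a pore built from C5b, C6, C7, C8 and C9. Most of these proteins pass through the ER as glycosylated, disulfide-bonded cargo, and several of the clotting proteins additionally need vitamin K-dependent carboxylation there.

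The 12 arrays resembled each other closely (correlations across probesets of 0.958 to 0.996), and no 2 held identical values. Of 10 genes known to respond to ER stress, TM raised 9 in Atf6a-/- and all 10 in wild-type animals. The probeset of Atf6 read 9.76 to 10.50 in Atf6a-/- with TM, 7.03 to 7.79 in Atf6a-/- with vehicle, 10.75 to 11.16 in wild-type with TM and 8.74 to 9.47 in wild-type with vehicle. Which part of the transcript it covers was not examined, so it does not check the deletion. Hepatocyte markers such as albumin averaged between 13.79 and 14.04 in all 12 arrays. Animal 2 of Atf6a-/- with TM, animal 3 of Atf6a-/- with vehicle, animal 1 of wild-type with TM and animal 2 of wild-type with vehicle had a signal of the Y-linked gene Eif2s3y of 8.21 or more, against at most 3.44 in the other 8 arrays. The p-values rest on the spread between 3 animals per group, and the number of arrays limits their precision.

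TM lowered the mRNAs of many clotting and complement proteins and raised none of them past the limits. In Atf6a-/- livers 15 of 34 were called lower, 9 of coagulation and 6 of complement, and 0 were called higher. Across all genes 8.21% were called lower and 13.1% higher in that comparison. Many genes on an array are expressed little, and among the 4490 genes at least as bright as the dimmest of the 34, 16.5% were called lower. In wild-type livers 9 of 34 were called lower, 7 of coagulation and 2 of complement, and again 0 were called higher. The corresponding shares over all genes were 6.9% lower and 8.92% higher, and 12% lower among the bright genes. All 9 genes called in wild-type livers were among the 15 called in Atf6a-/- livers. Without the 4 arrays with Y-linked signal the counts were 9 of coagulation and 6 of complement in Atf6a-/- livers, and 10 and 2 in wild-type livers.

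**Figure D1:**
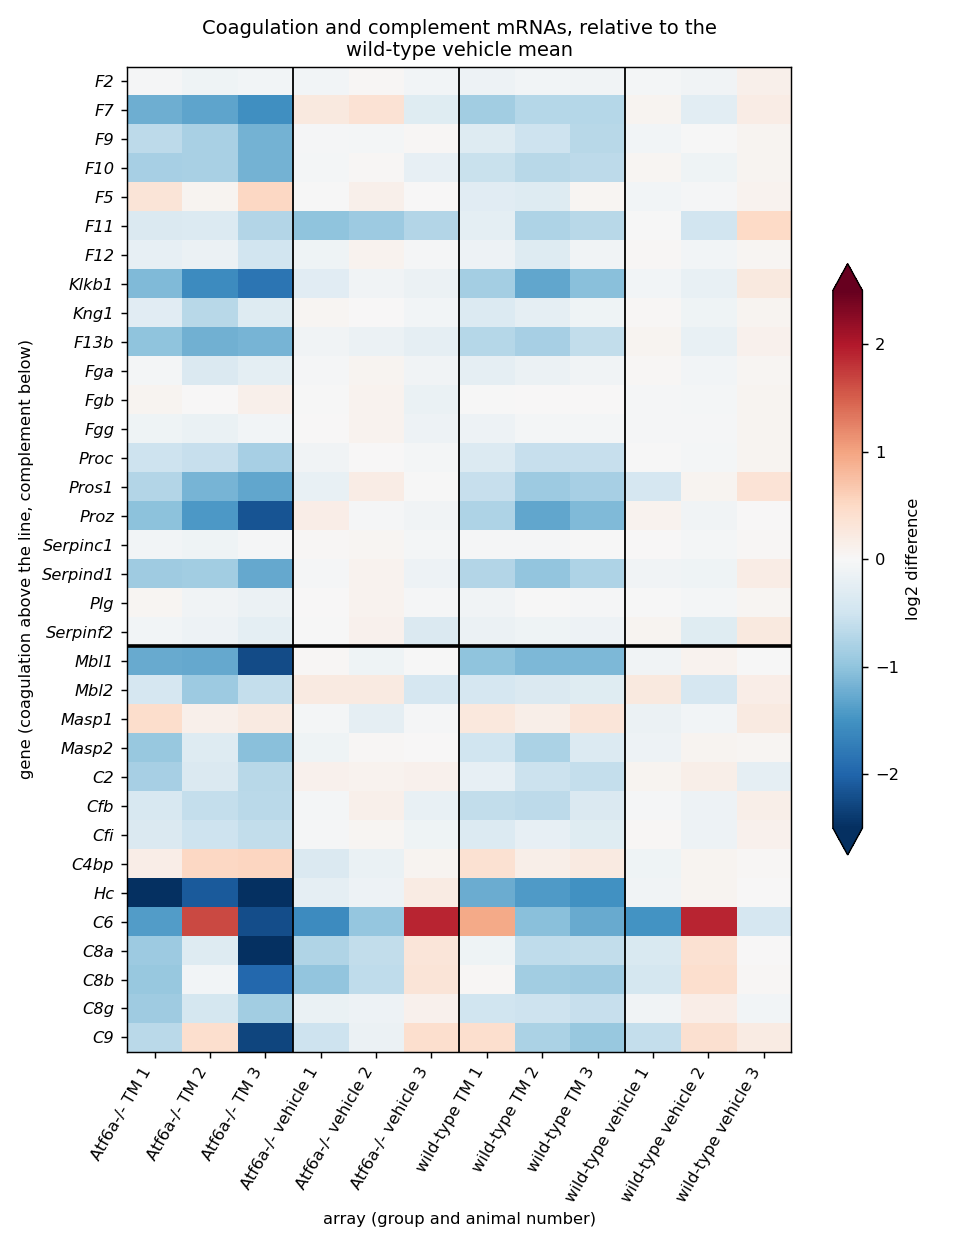
Level of each of the 34 genes (rows, coagulation above the heavy line and complement below) in each of the 12 arrays (columns, by group and animal number), as the log2 difference from the mean of the wild-type vehicle group; colours end at 2.5 in both directions. Blue rows such as Hc, Mbl1, Proz and Klkb1 are low in all 6 TM arrays, whereas C6 is high in 1 array of every group.

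The median change of the 20 coagulation genes was -0.34 in Atf6a-/- and -0.36 in wild-type livers on the log2 scale. For the 14 complement genes it was -0.66 in Atf6a-/- and -0.45 in wild-type livers, beside -0.10 and -0.06 over all genes. The sign was negative for 29 of 34 in Atf6a-/- and 32 of 34 in wild-type livers. Over all 18193 genes it was negative for 11659 in Atf6a-/- and 11021 in wild-type livers. All 3 TM animals lay below all 3 vehicle animals for 11 of 20 coagulation and 7 of 14 complement genes in Atf6a-/- livers, where this held for 29.6% of all genes. In wild-type livers it held for 13 of 20 and 6 of 14, against 22.5% of all genes. Coagulation had the larger share of called genes in wild-type livers, 7 of 20 against 2 of 14, while the complement median was the lower one there. These shares depended on the choice of probeset. When probesets were averaged per gene, F10 lost its wild-type call (-0.54), and Masp2 (-0.67) and C2 (-0.62) gained one. The complement genes C6, C9, C8a and C8b had wild-type standard errors of 0.45 to 1.15, too wide for changes of -0.44 to -0.58 to be called. Whether the lists differ was not tested.

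**Figure D2:**
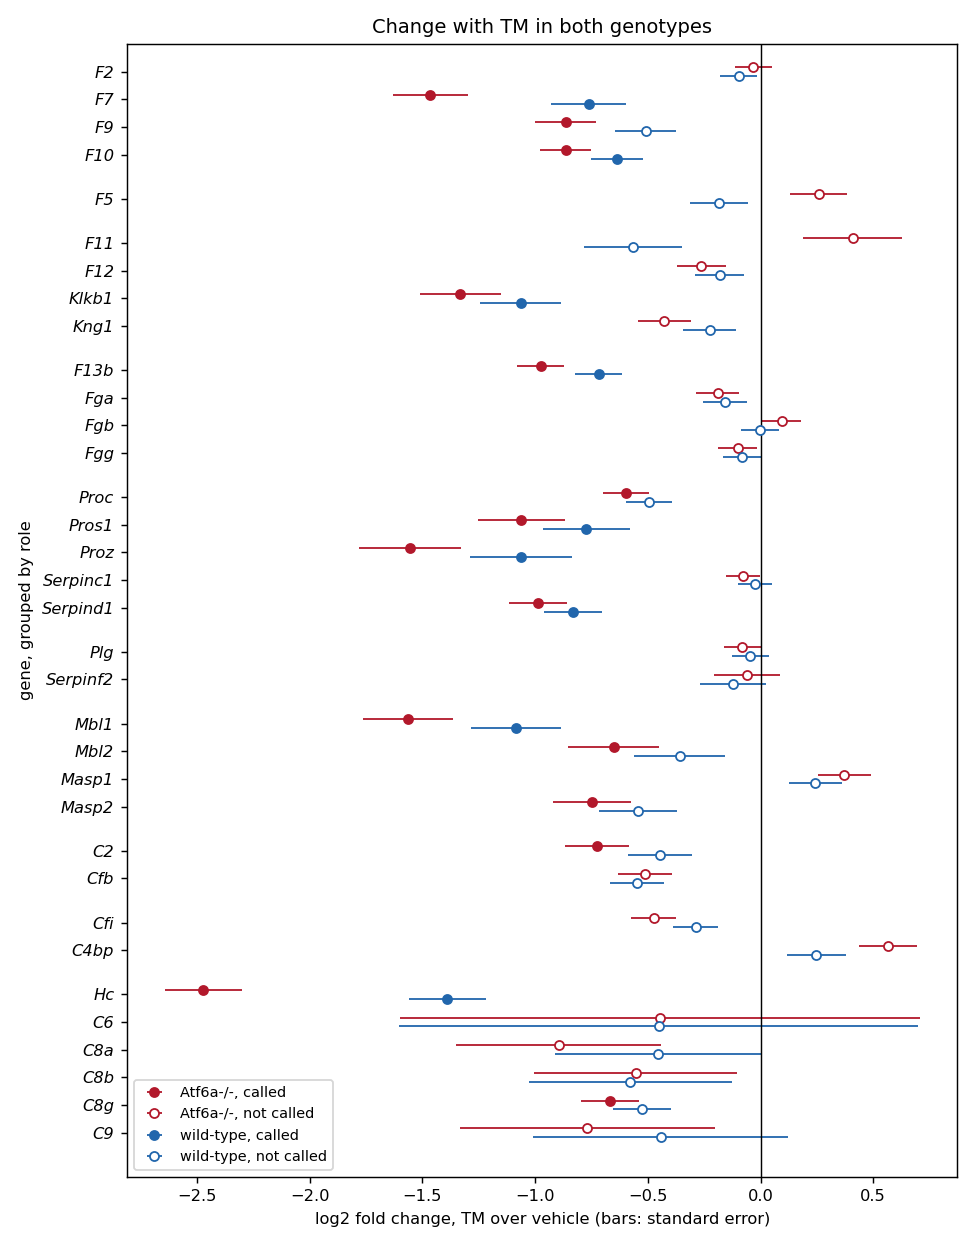
Log2 fold change of TM over vehicle (horizontal axis) for each gene (vertical axis, grouped by role), with bars of 1 standard error. Filled points were called and open points were not, in Atf6a-/- (red) and wild-type (blue) livers; the filled points run between -2.47 and -0.60, and no point right of 0 is filled.

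Complement C5, encoded by Hc, is cleaved to start the terminal pathway and had the largest decrease of the 34 genes in both genotypes. Hc measured 10.22, 10.95 and 10.40 in Atf6a-/- livers with TM, against 12.82, 12.92 and 13.25 with vehicle. It measured 11.80, 11.63 and 11.54 in wild-type livers with TM, against 12.96, 13.11 and 13.06 with vehicle. The TM and vehicle animals were well apart in both genotypes, and the 3 Atf6a-/- animals with TM were also below the 3 wild-type animals with TM. The decrease was -2.47 ± 0.17 (SE, adjusted p = 1.15e-06), or 5.55-fold, in Atf6a-/- livers and -1.39 ± 0.17 (adjusted p = 0.000107), or 2.62-fold, in wild-type livers.

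Mbl1 encodes a mannose-binding lectin that recognises microbial sugars and starts the lectin pathway. Its level was 10.88, 10.85 and 9.91 in Atf6a-/- livers with TM, against 12.17, 12.04 and 12.13 with vehicle. Wild-type livers had 11.12, 11.01 and 11.02 with TM, against 12.05, 12.23 and 12.12 with vehicle. All 6 TM animals lay below all 6 vehicle animals, with 1 Atf6a-/- animal lowest of all. The change was -1.57 ± 0.20 (adjusted p = 9.5e-05) in Atf6a-/- and -1.08 ± 0.20 (adjusted p = 0.00212) in wild-type livers.

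Proz encodes protein Z, a vitamin K-dependent cofactor for the inhibition of factor Xa. It read 10.72, 10.30 and 9.58 in Atf6a-/- livers with TM, against 11.90, 11.71 and 11.65 with vehicle. In wild-type livers it read 10.96, 10.44 and 10.62 with TM, against 11.82, 11.64 and 11.74 with vehicle. Neither genotype showed overlap of TM with vehicle. The change was -1.56 ± 0.23 (adjusted p = 0.000252) in Atf6a-/- and -1.06 ± 0.23 (adjusted p = 0.00543) in wild-type livers, and a dimmer probeset of Proz changed by -1.08 and -0.91 in the same order.

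F7 encodes factor VII, the protease that tissue factor engages to start clotting. Its values were 10.35, 10.24 and 10.02 in Atf6a-/- livers with TM, against 11.80, 11.93 and 11.27 with vehicle. The wild-type values were 10.69, 10.85 and 10.85 with TM, against 11.63, 11.31 and 11.75 with vehicle. All Atf6a-/- animals with TM were below all wild-type animals with TM. The change was -1.46 ± 0.17 (adjusted p = 4.14e-05), or 2.76-fold, in Atf6a-/- and -0.76 ± 0.17 (adjusted p = 0.00654), or 1.70-fold, in wild-type livers.

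The promoters of these 4 genes are shown because they had the largest decreases in Atf6a-/- livers among the members with a promoter sequence. In wild-type livers Klkb1 fell as much as Proz, and Klkb1, Serpind1 and Pros1 had larger decreases than F7. RefSeq sequences on build GRCm38.p6, from 250 bases before to 50 bases after the start of transcription, were at hand for 27 of the 34 genes. Both strands were searched for 6 short motifs of liver and ER stress factors: GTTAATNAT for HNF1, CAAAGTCCA for HNF4, TTGCNNAAT for C/EBP, TGATGCAA for the C/EBP-ATF4 element, TGACGTG for ATF6 and XBP1, and CCAAT for NF-Y. A C/EBP match with CC in its free positions also holds the NF-Y letters. Capitals mark the matches, 5′ to 3′ in the direction of the gene.
Hc (chr2:35061363-35061662, minus strand): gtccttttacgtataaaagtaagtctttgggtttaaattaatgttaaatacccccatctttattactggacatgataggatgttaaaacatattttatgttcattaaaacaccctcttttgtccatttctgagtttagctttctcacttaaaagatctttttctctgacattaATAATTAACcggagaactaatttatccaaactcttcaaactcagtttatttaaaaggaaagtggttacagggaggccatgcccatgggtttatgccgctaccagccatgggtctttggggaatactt
Mbl1 (chr14:41151206-41151505, plus strand): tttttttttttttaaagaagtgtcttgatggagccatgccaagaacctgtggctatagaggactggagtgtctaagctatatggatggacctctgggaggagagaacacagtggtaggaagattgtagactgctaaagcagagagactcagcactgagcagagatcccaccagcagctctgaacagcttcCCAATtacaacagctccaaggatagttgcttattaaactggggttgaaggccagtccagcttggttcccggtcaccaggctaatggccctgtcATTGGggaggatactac
Proz (chr8:13060658-13060957, plus strand): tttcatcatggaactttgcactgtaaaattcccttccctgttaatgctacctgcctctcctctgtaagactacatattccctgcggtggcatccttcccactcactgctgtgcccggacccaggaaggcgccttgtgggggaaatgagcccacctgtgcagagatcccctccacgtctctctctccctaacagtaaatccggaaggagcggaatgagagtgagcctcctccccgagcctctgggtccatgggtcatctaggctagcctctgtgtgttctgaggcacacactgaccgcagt
F7 (chr8:13025784-13026083, plus strand): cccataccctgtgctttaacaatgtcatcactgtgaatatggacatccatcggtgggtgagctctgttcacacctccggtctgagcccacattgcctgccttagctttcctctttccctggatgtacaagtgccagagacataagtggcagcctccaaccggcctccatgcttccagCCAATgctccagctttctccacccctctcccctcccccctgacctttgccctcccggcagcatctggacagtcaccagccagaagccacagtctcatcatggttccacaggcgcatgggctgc
Hc held 1 HNF1 match, ATAATTAAC, 77 to 69 bases before the start, Mbl1 held 2 NF-Y matches, F7 held 1, and Proz held none of the 6 motifs. The HNF1 motif occurred in 4 of the 27 promoters (Hc, F13b, Fga and C4bp), against 0.836% of 27025 promoters in all. Of these 4 genes, Hc and F13b fell with TM, and Fga and C4bp were not called. The C/EBP motif occurred in 3 of 27 (F9, Fga and C9), against 2.42% of all promoters, and CCAAT in 7 of 27, against 37.9%. HNF4, C/EBP-ATF4 and ATF6 letters were in 0 of 27, with shares over all promoters of 0.477%, 0.929% and 1.99%, which says only that these exact letters are not in the windows.

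**Figure D3:**
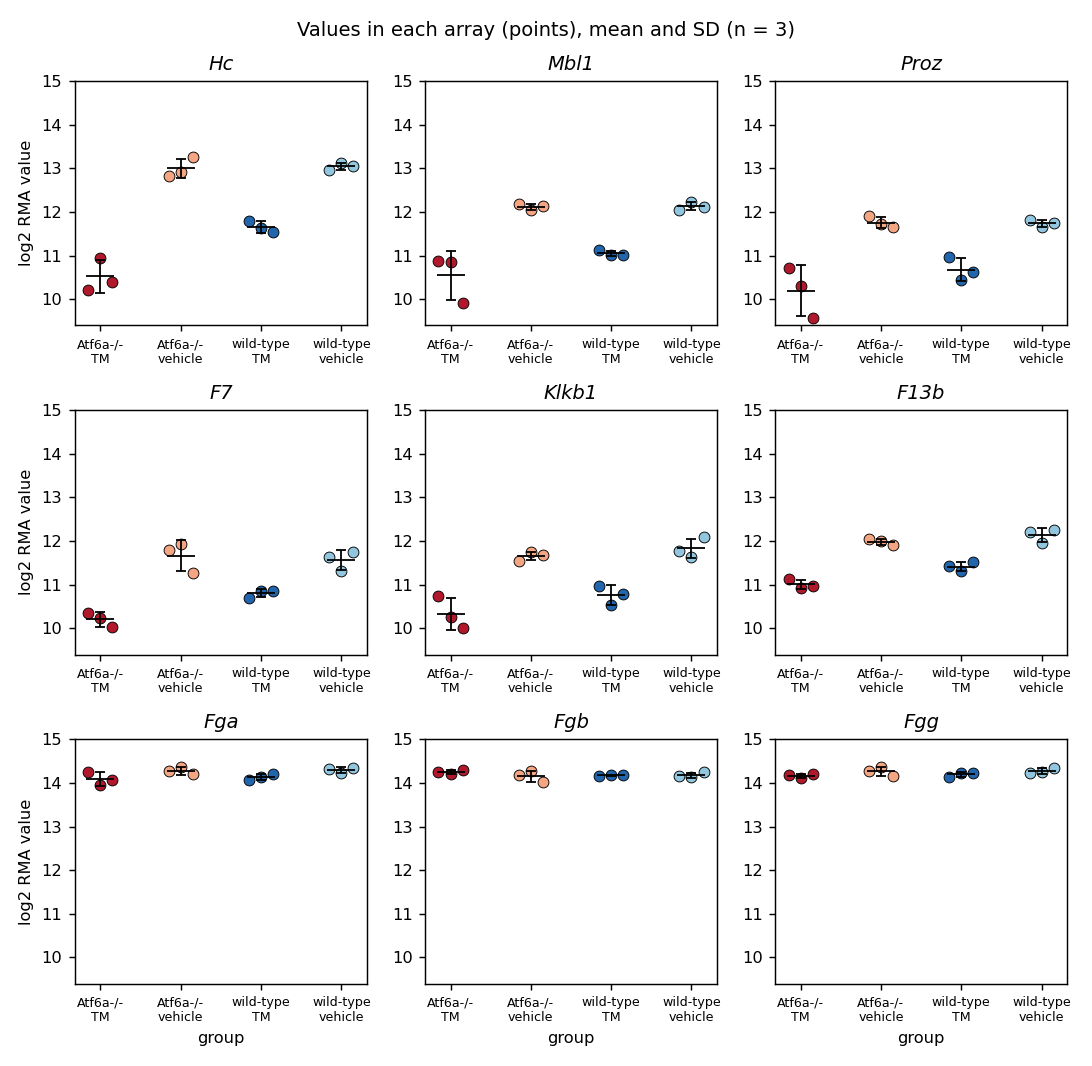
Log2 RMA value (vertical axis) of 9 genes in the 4 groups (horizontal axis), with 1 point per animal, a line for the mean and bars for 1 SD (n = 3). Hc, Mbl1, Proz, F7, Klkb1 and F13b were called lower with TM in both genotypes, whereas the fibrinogen genes Fga, Fgb and Fgg lay between 13.94 and 14.37 in all 12 arrays.

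Among the serine proteases of the cascade outside the contact pathway, F7, F9 and F10 fell in Atf6a-/- livers and F7 and F10 in wild-type livers. F9, the protease missing in hemophilia B, ranged from 10.72 to 11.26 in Atf6a-/- livers with TM, against 11.86 to 11.94 with vehicle. That was a change of -0.86 ± 0.13 (adjusted p = 0.000411), and in wild-type livers F9 changed by -0.51 ± 0.13 (adjusted p = 0.0186), under the 1.5-fold limit. F10, which forms the prothrombin-cleaving enzyme, changed by -0.86 ± 0.11 (adjusted p = 0.000118) in Atf6a-/- and -0.64 ± 0.11 (adjusted p = 0.00168) in wild-type livers. Both dimmer probesets of F10 were called in Atf6a-/- livers (-0.83 and -0.60) and neither was in wild-type livers (-0.55 and -0.45). F2, which encodes prothrombin itself, did not follow, with 13.59 to 13.65 in Atf6a-/- livers with TM, against 13.61 to 13.73 with vehicle. Its change was -0.03 ± 0.08 in Atf6a-/- and -0.10 ± 0.08 in wild-type livers. F5, the cofactor of factor Xa, changed by 0.26 ± 0.13 in Atf6a-/- and -0.19 ± 0.13 in wild-type livers, and neither passed.

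Anticoagulants were called lower alongside the proteases, 4 of 5 in Atf6a-/- and 3 of 5 in wild-type livers, beside 8.21% and 6.9% of all genes. Pros1, the protein S cofactor of activated protein C, was the dimmest of the 34 genes. Its level was 8.27, 7.82 and 7.69 in Atf6a-/- livers with TM, against 8.81, 9.18 and 8.98 with vehicle, a change of -1.06 ± 0.19 (adjusted p = 0.00134). In wild-type livers it was 8.42, 8.08 and 8.15 with TM, against 8.58, 9.07 and 9.33 with vehicle, a change of -0.77 ± 0.19 (adjusted p = 0.0144). The wild-type groups were separated by a narrow gap only, and that call was lost without animal 2 or 3 of the TM group or animal 3 of the vehicle group in turn (adjusted p = 0.0519 to 0.0638).

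Serpind1 encodes heparin cofactor II, a thrombin inhibitor. It measured 11.59, 11.61 and 11.20 in Atf6a-/- livers with TM, against 12.45, 12.56 and 12.35 with vehicle. Wild-type livers gave 11.73, 11.48 and 11.70 with TM, against 12.38, 12.37 and 12.66 with vehicle. The separation was clear in both genotypes, with changes of -0.99 ± 0.13 (adjusted p = 0.000118) in Atf6a-/- and -0.83 ± 0.13 (adjusted p = 0.000647) in wild-type livers. Proc, the zymogen of activated protein C, changed by -0.60 ± 0.10 (adjusted p = 0.000918) in Atf6a-/- and -0.50 ± 0.10 (adjusted p = 0.00473) in wild-type livers. With 1.51-fold and 1.41-fold these stand on either side of the fold limit, and the Atf6a-/- call was lost without animal 3 of the TM group or animal 2 of the vehicle group and with quantile normalization (-0.55). Serpinc1, which encodes antithrombin, the main inhibitor of thrombin, changed by -0.08 ± 0.08 in Atf6a-/- and -0.02 ± 0.08 in wild-type livers and was not called.

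The vitamin K-dependent proteins cut across these roles, since F2, F7, F9, F10, Proc, Pros1 and Proz all undergo the same carboxylation. Of these 7, 6 were called lower in Atf6a-/- and 4 in wild-type livers, and F2 was called in neither. Over all genes 8.21% were called lower in Atf6a-/- and 6.9% in wild-type livers, and 16.5% and 12% among the bright genes. The median change of the 7 was -0.86 in Atf6a-/- and -0.64 in wild-type livers, beside -0.10 and -0.06 over all genes. F7, F10 and Proz are direct neighbours in the RefSeq gene order, with 0 protein-coding genes between them. All 3 were called in both genotypes, F10 in wild-type livers by its brightest probeset only.

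In the contact pathway, which starts clotting on negatively charged surfaces, 1 gene of 4 was called, Klkb1, in both genotypes. Klkb1 encodes plasma prekallikrein, the precursor of the enzyme that releases bradykinin. Its level was 10.73, 10.26 and 9.998 in Atf6a-/- livers with TM, against 11.55, 11.75 and 11.68 with vehicle, a change of -1.33 ± 0.18 (adjusted p = 0.00014). Wild-type livers had 10.98, 10.53 and 10.80 with TM, against 11.77, 11.64 and 12.08 with vehicle, a change of -1.06 ± 0.18 (adjusted p = 0.00112). TM and vehicle were apart in both genotypes. Kng1, the kininogen from which bradykinin is cut, changed by -0.43 ± 0.12 (adjusted p = 0.0157) in Atf6a-/- and -0.23 ± 0.12 in wild-type livers, short of the fold limit. A dimmer Kng1 probeset did pass in Atf6a-/- livers (-0.63, adjusted p = 0.00104). F12, the factor that contact activates first, changed by -0.26 ± 0.11 in Atf6a-/- and -0.18 ± 0.11 in wild-type livers.

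F11, the neighbour of Klkb1 with 0 protein-coding genes between, had fitted changes of opposite sign in the genotypes. It encodes factor XI, the protease that activates factor IX. F11 read 10.60, 10.63 and 10.23 in Atf6a-/- livers with TM, against 9.96, 10.05 and 10.22 with vehicle. In wild-type livers it read 10.72, 10.19 and 10.27 with TM, against 10.94, 10.48 and 11.46 with vehicle. All 3 Atf6a-/- animals with vehicle were below all 3 wild-type animals with vehicle, by -0.88 ± 0.22, which did not pass after adjustment. The change with TM was 0.41 ± 0.22 (adjusted p = 0.189) in Atf6a-/- and -0.57 ± 0.22 (adjusted p = 0.101) in wild-type livers, and the difference between them, 0.97 ± 0.31, had an adjusted p of 0.199. The wild-type change was called without animal 2 of the vehicle group (-0.81, adjusted p = 0.0113) and without the 4 arrays with Y-linked signal (-0.97, adjusted p = 0.00496). The difference was called without animal 2 of the wild-type vehicle group (1.22, adjusted p = 0.0451) and without the 4 arrays with Y-linked signal (1.38, adjusted p = 0.0343). Leaving out those 4 arrays was chosen after the values were seen.

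Fibrin formation rests on the 3 chains of fibrinogen, the most abundant clotting protein, and on factor XIII, which cross-links the clot. The A alpha chain gene Fga measured 14.26, 13.94 and 14.06 in Atf6a-/- livers with TM, against 14.26, 14.37 and 14.20 with vehicle. For Fgb, the B beta chain gene, the values were 14.25, 14.20 and 14.30 with TM, against 14.18, 14.27 and 14.02 with vehicle. For Fgg, the gamma chain gene, they were 14.17, 14.10 and 14.21 with TM, against 14.28, 14.36 and 14.15 with vehicle. The groups overlapped for all 3 genes, with changes of -0.19 ± 0.10, 0.09 ± 0.09 and -0.10 ± 0.08 in the order Fga, Fgb and Fgg. In wild-type livers Fga measured 14.07, 14.14 and 14.20 with TM, against 14.32, 14.22 and 14.35 with vehicle. Fgb measured 14.16, 14.18 and 14.18 with TM, against 14.15, 14.14 and 14.24 with vehicle. Fgg measured 14.14, 14.22 and 14.22 with TM, against 14.24, 14.24 and 14.34 with vehicle. The wild-type TM animals lay below the vehicle animals for Fga and Fgg by narrow gaps and overlapped with them for Fgb. None of the 3 was called, and the wild-type changes ran from -0.16 ± 0.10 for Fga to -0.08 ± 0.08 for Fgg and 0.00 for Fgb. F13b, the carrier subunit of factor XIII, behaved otherwise and changed by -0.98 ± 0.10 (adjusted p = 2.28e-05) in Atf6a-/- and -0.72 ± 0.10 (adjusted p = 0.000355) in wild-type livers.

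Neither fibrinolysis gene was called. Plg, which encodes the clot-dissolving zymogen plasminogen, changed by -0.08 ± 0.08 in Atf6a-/- and -0.04 ± 0.08 in wild-type livers. Serpinf2, the plasmin inhibitor, changed by -0.06 ± 0.15 in Atf6a-/- and -0.12 ± 0.15 in wild-type livers.

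The members were also divided by brightness, with no test of the difference. Those with a vehicle level of 13 or more numbered 12, of which 3 were called lower in Atf6a-/- (Hc, C8g and Mbl2) and 1 in wild-type livers (Hc). Below that level 12 of 22 were called in Atf6a-/- and 8 of 22 in wild-type livers. Of all 191 genes with a level of 13 or more, 33 were called lower in Atf6a-/- and 14 in wild-type livers. Over the 34 genes, the Spearman correlation of vehicle level with the size of the change was -0.47 in Atf6a-/- and -0.59 in wild-type livers, a description across genes of the same 12 arrays. The brightest probeset of any array read 14.90 to 14.97, within 1 log2 unit of the fibrinogen genes, and a loss of range near that ceiling was not tested.

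**Figure D4:**
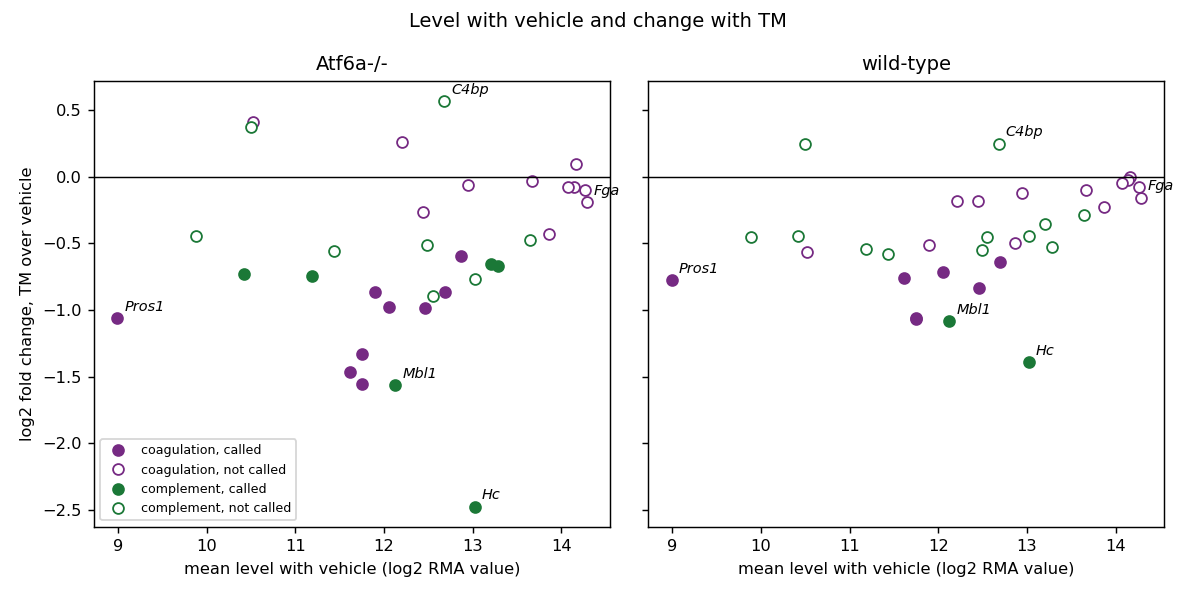
Mean log2 RMA value of the vehicle arrays (horizontal axis) against the log2 fold change of TM over vehicle (vertical axis) for the 34 genes in Atf6a-/- (left) and wild-type (right) livers; filled points were called. The points at the far right, the fibrinogen genes among them, lie close to 0, while Hc at 13.02 has -2.47 and -1.39.

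Within the lectin pathway, 3 of 4 genes were called lower in Atf6a-/- and 1 of 4 in wild-type livers, beside 8.21% and 6.9% of all genes. Masp2, the protease that mannose-binding lectin uses to cleave C4 and C2, measured 10.25, 10.88 and 10.15 in Atf6a-/- livers with TM, against 11.08, 11.23 and 11.21 with vehicle. It measured 10.70, 10.41 and 10.86 in wild-type livers with TM, against 11.08, 11.26 and 11.25 with vehicle. TM was below vehicle in every animal of both genotypes, by -0.75 ± 0.17 (adjusted p = 0.006) in Atf6a-/- and, just under 1.5-fold, -0.54 ± 0.17 (adjusted p = 0.0452) in wild-type livers. A dimmer Masp2 probeset was called in both (-0.96 in Atf6a-/- and -0.80 in wild-type livers). Mbl2, the second mannose-binding lectin, changed by -0.65 ± 0.20 (adjusted p = 0.0308) in Atf6a-/- livers, with 12.30 to 12.79 under TM against 12.78 to 13.43 with vehicle. These ranges overlap, and the call was lost without animal 2 or 3 of the TM group or animal 1 or 2 of the vehicle group. In wild-type livers Mbl2 changed by -0.36 ± 0.20.

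The probesets of Masp1 differed in direction. Masp1 encodes a second lectin pathway protease, and different splice forms of the gene give different proteins. Its brightest probeset changed by 0.37 ± 0.12 (adjusted p = 0.0328) in Atf6a-/- and 0.24 ± 0.12 in wild-type livers, under the fold limit. Probesets at 8.78, 8.25 and 5.14 changed by -0.19, -0.28 and -0.20 in Atf6a-/- and by -0.40, -0.49 and -0.39 in wild-type livers, and the dimmest, at 4.26, by 0.32 and 0.07, so the sign for Masp1 depends on the probeset.

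Of the convertase genes, C2 was called in Atf6a-/- livers and Cfb in neither genotype. C2, the protease subunit of the classical and lectin convertase, was 9.53, 10.001 and 9.68 in Atf6a-/- livers with TM, against 10.46, 10.46 and 10.47 with vehicle. In wild-type livers C2 was 10.16, 9.83 and 9.77 with TM, against 10.44, 10.51 and 10.15 with vehicle. Separation was complete in Atf6a-/- livers (-0.73 ± 0.14, adjusted p = 0.00209), and the wild-type groups overlapped (-0.45 ± 0.14, adjusted p = 0.0465, under 1.5-fold). Both dimmer probesets of C2 were called lower in wild-type livers, with -0.70 and -0.73. Cfb, the factor B subunit of the alternative convertase, changed by -0.51 ± 0.12 (adjusted p = 0.00675) in Atf6a-/- and -0.55 ± 0.12 (adjusted p = 0.00656) in wild-type livers, both below the fold limit. It exceeded that limit in Atf6a-/- livers without animal 1 of the TM group (-0.59) or animal 3 of the vehicle group (-0.59), and in wild-type livers without animal 3 of the TM group (-0.64) or animal 2 of the vehicle group (-0.61).

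The regulators Cfi and C4bp had changes of opposite sign, and neither was called. Cfi, the protease that inactivates C3b and C4b, changed by -0.47 ± 0.10 (adjusted p = 0.00358) in Atf6a-/- and -0.29 ± 0.10 (adjusted p = 0.0687) in wild-type livers. C4bp, its cofactor, was 12.93 to 13.30 in Atf6a-/- livers with TM, against 12.40 to 12.82 with vehicle, and 12.90 to 13.13 in wild-type livers with TM, against 12.66 to 12.82 with vehicle. The groups did not overlap in either genotype, with changes of 0.57 ± 0.13 (adjusted p = 0.00575, 1.48-fold) in Atf6a-/- and 0.25 ± 0.13 in wild-type livers. C4bp came closest to a call in the upward direction and exceeded 1.5-fold in Atf6a-/- livers without animal 1 of the TM group (0.69) or animal 3 of the vehicle group (0.67).

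The terminal pathway held both the largest change and the widest scatter. All 6 of its genes had a negative sign in both genotypes, beside 11659 of 18193 genes in Atf6a-/- and 11021 in wild-type livers. The medians of the 6 were -0.72 in Atf6a-/- and -0.49 in wild-type livers. Only Hc and C8g were called in Atf6a-/- and Hc in wild-type livers. C8g, the gamma chain of C8, measured 12.43, 12.88 and 12.46 in Atf6a-/- livers with TM, against 13.15, 13.19 and 13.43 with vehicle. It measured 12.83, 12.81 and 12.74 in wild-type livers with TM, against 13.24, 13.48 and 13.25 with vehicle. TM and vehicle were apart in both, by -0.67 ± 0.13 (adjusted p = 0.0019) and -0.53 ± 0.13 (adjusted p = 0.0125, 1.44-fold).

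C6, C9, C8a and C8b had the largest SD within groups of all 34 genes, at 1.74, 0.85, 0.68 and 0.67, against a median of 0.16. C6, C8a and C8b contribute structural subunits to the pore and C9 polymerises to complete it. The scatter followed the Y-linked signal, a pattern picked out after the values were seen. C6 lay between 10.94 and 11.90 in the 4 arrays with Y-linked signal, against 7.76 to 9.57 in the other 8, with no overlap across treatment and genotype. For C9 the ranges were 13.46 to 13.48 in the 4 arrays and 10.78 to 13.26 in the other 8. C8a ranged from 12.41 to 13.11 against 10.20 to 12.74, and C8b from 11.58 to 12.07 against 9.70 to 11.67. In all 4 groups the array with Y-linked signal was the highest of its group for C6, C8a, C8b, C9, and also for Hc, C8g and C2. For Hc the ranges overlapped, with 10.95 to 13.25 in the 4 arrays and 10.22 to 13.06 in the other 8. The share of all genes that follow the Y-linked signal in this way was not computed. C6 and C9 lie near each other, with 8 protein-coding genes between, and C8a and C8b are adjacent. The X-linked RNA Xist read 5.63 to 6.33 in the 4 arrays with Y-linked signal and 11.69 to 12.26 in the other 8. The labels give no sex for single animals, and no difference between sexes was tested.

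**Figure D5:**
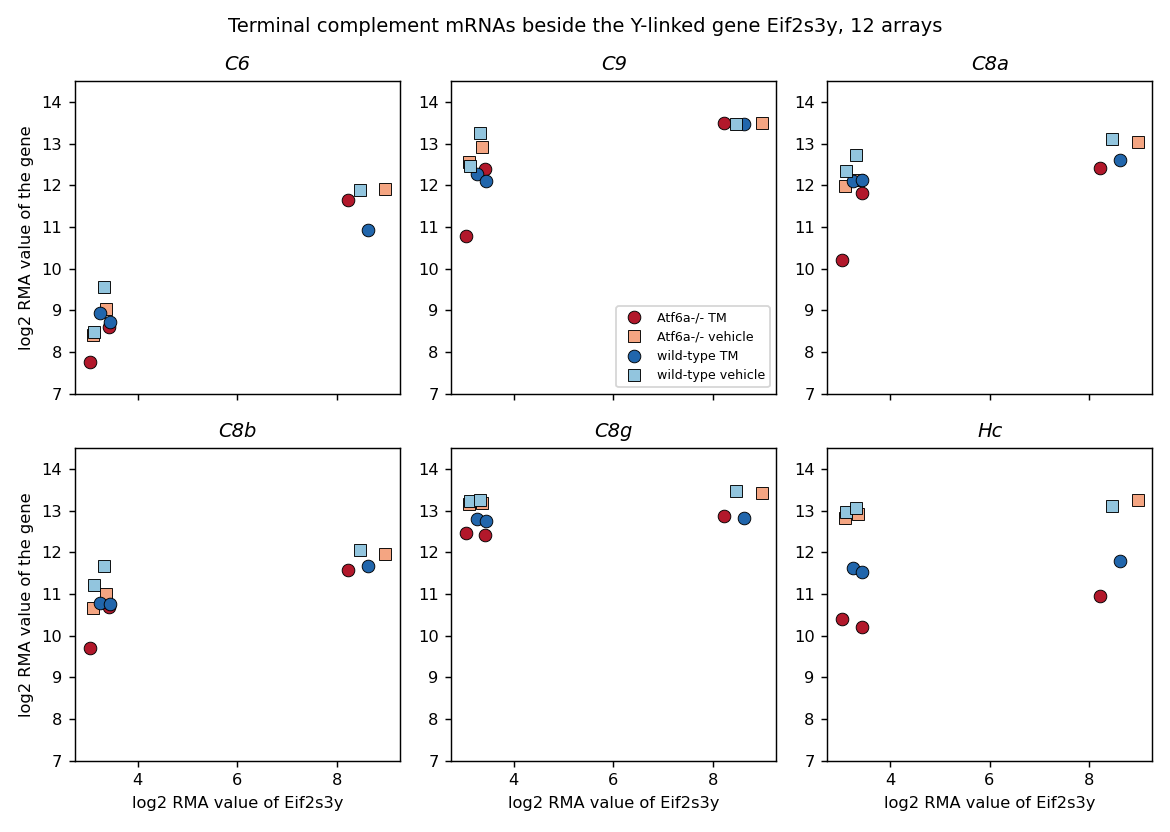
Log2 RMA value of 6 terminal pathway genes (vertical axis) against that of the Y-linked gene Eif2s3y (horizontal axis) in the 12 arrays; circles are TM and squares vehicle, in red for Atf6a-/- and blue for wild-type livers. The 4 arrays on the right, 1 per group, carry all the C6 values above 10, while Hc is lower with TM than with vehicle on both sides.

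None of these 4 genes was called with TM. C6 changed by -0.45 ± 1.15 in Atf6a-/- and -0.45 ± 1.15 in wild-type livers, C9 by -0.77 ± 0.57 and -0.44 ± 0.57, C8a by -0.90 ± 0.46 and -0.45 ± 0.46, and C8b by -0.55 ± 0.45 and -0.58 ± 0.45, Atf6a-/- first. With the level of Y-linked genes over Xist in the fit, the adjusted p of C8a in Atf6a-/- livers was 0.0503, and that of C8b was 0.0959. Without the 4 arrays with Y-linked signal C9 changed by -1.15 (adjusted p = 0.0807) and C8a by -1.03 (adjusted p = 0.0859) in Atf6a-/- livers, still uncalled. C8a was called in Atf6a-/- livers only without animal 2 of the TM group (-1.36, adjusted p = 0.0365), which leaves that group with no array with Y-linked signal.

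The genotypes were then compared directly. Under TM, 1 of the 34 genes was called, Hc, lower in Atf6a-/- livers by -1.13 ± 0.17 (adjusted p = 0.00242), or 2.19-fold. Over all genes 1.53% were called lower and 2.89% higher. F13b passed the limit of p (-0.41 ± 0.10, adjusted p = 0.0454) but not that of fold, with 1.33-fold. F7 (-0.60 ± 0.17, adjusted p = 0.0729) and Mbl1 (-0.51 ± 0.20, adjusted p = 0.243) had all 3 Atf6a-/- animals below all 3 wild-type animals without passing. F5 (0.49 ± 0.13, adjusted p = 0.0542) had them above. The same separation without a call was seen below for F10, F13b and Cfi and above for Fgb. The share of all genes separated in this way between the genotypes was not computed. The sign was negative for 28 of 34 genes, beside 9852 of all 18193. The medians were -0.12 for coagulation and -0.22 for complement, beside -0.02 over all genes.

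With vehicle, 0 of 34 genes were called between the genotypes by limma, as were 0% of all genes, and without adjustment of p F11 alone was called (-0.88). The medians were -0.02 for coagulation and -0.05 for complement. The difference between the genotypes in the response to TM was also called for 0 of 34 genes, beside 1.81% of all genes. Hc came closest, with -1.08 ± 0.24 (adjusted p = 0.054), and without adjustment Hc, F7 (-0.70 ± 0.24) and F11 were called. Hc crossed the limit with the Y-linked covariate (adjusted p = 0.00704) and without animal 2 of Atf6a-/- with TM (adjusted p = 0.00653). The larger number of calls in Atf6a-/- than in wild-type livers, 15 against 9, was thus not matched by a called difference in response for any gene.

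Other genes of both systems, which the 36 do not include, were examined as well. Of 25 further coagulation genes measured of 28 listed, 3 were higher and 3 lower in Atf6a-/- livers, and 4 were higher and 3 lower in wild-type livers. Over all genes 13.1% were called higher and 8.21% lower in Atf6a-/- livers, and 8.92% and 6.9% in wild-type livers. The 3 further coagulation genes that rose in both genotypes were Lman1, Mcfd2 and S100a10. Lman1 and Mcfd2, which together form the receptor that carries factors V and VIII out of the ER, rose by 0.80 ± 0.11 (adjusted p = 0.000231) and 0.97 ± 0.10 (adjusted p = 2.57e-05) in Atf6a-/- livers. In wild-type livers Lman1 rose by 0.90 ± 0.11 (adjusted p = 0.00014) and Mcfd2 by 1.54 ± 0.10 (adjusted p = 1.01e-06). S100a10, a subunit of a cell surface plasminogen receptor, rose by 0.77 ± 0.13 in Atf6a-/- and 1.16 ± 0.13 in wild-type livers, both called. Hrg, a plasma protein that binds heparin and plasminogen, fell by 1.06 in Atf6a-/- and by 0.63 in wild-type livers on the log2 scale. F8, which encodes factor VIII, read 7.77 to 7.98 in Atf6a-/- livers with TM, against 8.02 to 8.12 with vehicle. In wild-type livers it read 7.82 to 8.02 with TM, against 8.07 to 8.23 with vehicle, and neither change reached 1.5-fold. The cargo genes F5 and F8 were called in neither genotype, and a link between the mRNAs of receptor and cargo was not tested.

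Of 22 further complement genes measured of 28 listed, 0 were higher and 4 lower in Atf6a-/- livers, and 0 were higher and 2 lower in wild-type livers. Over all genes 8.21% were called lower in Atf6a-/- and 6.9% in wild-type livers. C1s1, a protease of the first complement component, changed by -0.89 ± 0.12 in Atf6a-/- and -0.71 ± 0.12 in wild-type livers. Cd59a, which protects cells from the pore, changed by -1.12 ± 0.15 in Atf6a-/- and -0.69 ± 0.15 in wild-type livers. All 4 of these values were called. C3ar1, the receptor of the C3a fragment, was called in Atf6a-/- livers (-1.01 ± 0.17) and not in wild-type livers (-0.43 ± 0.17), and Serping1, the C1 inhibitor, was called in neither (-0.37 ± 0.09 and -0.27 ± 0.09).

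Other plasma proteins of hepatocytes gave fewer calls than the 34 genes. The list had a mean of 12.92 to 13.46 per array, and the part of brightness in its calls was not tested. Among all 191 genes with a vehicle level of 13 or more, 33 were called lower in Atf6a-/- and 14 in wild-type livers. Over all genes 8.21% and 6.9% were. Of 29 measured of 33 listed, 5 were lower in Atf6a-/- and 1 in wild-type livers, 0 were higher, and the medians were -0.20 and -0.09. The 1 called in both was Igfals, the acid-labile subunit that holds insulin-like growth factors in plasma, with -3.59 ± 0.15 in Atf6a-/- and -3.81 ± 0.15 in wild-type livers. Apob, the structural protein of very low density lipoprotein, changed by -0.83 ± 0.24 (adjusted p = 0.0231) in Atf6a-/- and -0.75 ± 0.24 (adjusted p = 0.0511) in wild-type livers. Apoc3 and Cp, an apolipoprotein and the copper-carrying ceruloplasmin, were not called, with -0.49 and -0.36 in Atf6a-/- and -0.29 and -0.34 in wild-type livers. Whether the clotting and complement lists differ from this list was not tested.

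Some markers of other liver cells were also called with TM. Over all genes 8.21% were called lower and 13.1% higher in Atf6a-/- livers, and 6.9% and 8.92% in wild-type livers. All 10 markers of Kupffer cells and macrophages had a negative sign in both genotypes, beside 11659 of 18193 genes in Atf6a-/- and 11021 in wild-type livers. Called lower were 3 of 10 in Atf6a-/- and 0 of 10 in wild-type livers. Some of these markers are also among the further complement genes above. The mean level of the 10 was 8.62 to 9.15 in Atf6a-/- with TM and 9.09 to 9.79 with vehicle. In wild-type livers it was 9.08 to 9.34 with TM and 9.01 to 9.92 with vehicle. The array with Y-linked signal was the lowest of its group, except in wild-type with TM, where it was the highest. Called lower in Atf6a-/- livers were 3 of 7 lymphocyte, 1 of 8 stellate cell and 1 of 4 cholangiocyte markers, and in wild-type livers 2 of 8 stellate cell and 1 of 8 endothelial markers. Of 8 endothelial markers 1 was called higher in Atf6a-/- livers, and none of 5 neutrophil and 6 erythroid and platelet markers was called. Of the 8 hepatocyte markers, 2 were higher and 1 lower in Atf6a-/- livers, and 1 was higher in wild-type livers. The part of these cells in the changes above was not tested.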

How the data were processed

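The authors deposited log2 expression values per probeset, made from 1-colour Affymetrix scans by RMA with the affy package (limma is also named in the submitters' processing notes, and no version is given in the sources used here). RMA corrects background, quantile normalizes probe intensities across arrays and summarises the probes of a probeset, which can compress changes near the ends of the range. The deposited values were used as they are. After 64 control probesets were left out, 45037 of 45101 were fitted in R 4.3.3 with limma 3.58.1 (lmFit and eBayes, 1 mean per group, 12 arrays, 8 residual and 4.25 prior degrees of freedom). p-values were adjusted by Benjamini-Hochberg over all probesets of a contrast. With 3 arrays on each side, the smallest p of an exact permutation test is 0.1. Array columns were matched to animals through the sample labels. The members, gene lists and tests were chosen with earlier results of these data known. Values per array are given for the fibrinogen genes and for genes with the largest called changes. The latter are up to 5 coagulation and 5 complement genes per contrast and direction. Up to 4 genes of each other list are named by the size of limma's statistic in wild-type animals, with F8 named besides. Other values per array were chosen after they were seen. The fit was tested on simulated data. Alternatives were quantile normalization, centring on Btf3 and Ppia (read through a probeset that Ppia shares with another gene), the animal number as a block, a Y-linked covariate, other probeset rules, other fold limits, a trend in eBayes, only the arrays of a comparison, the methods' t-test and leaving out arrays. Promoters and gene order are from RefSeq.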

Additional observations from a re-analysis of the deposited data

How the results depend on the processing

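Over 4478 re-estimates of single members, 4389 stayed called or stayed uncalled, 36 lost a call and 53 gained one. Most of the 4389 had no call to lose. The main fit called 15 of 34 genes with TM in Atf6a-/- livers, 9 in wild-type livers, 1 between the genotypes under TM and 0 otherwise. As a called value 0 changed sign, and no list median moved by more than the spread between arrays. With TM in Atf6a-/- livers, the count of complement genes called higher was 1 with quantile normalization (C4bp), 1 without the 4 arrays with Y-linked signal, 2 with no fold limit, and 0 to 1 when single arrays were left out. Of genes called lower there, a 2-fold limit left 4 of coagulation and 2 of complement, and the methods' t-test, after Benjamini-Hochberg adjustment, left 2 of complement. In wild-type livers, complement genes called lower numbered 4 with the mean of all probesets, 4 without _s_at, _x_at and _a_at probesets, 6 with no fold limit and 2 to 4 with single arrays left out, and coagulation genes numbered 2 at 2-fold and 4 by the adjusted t-test. Between the genotypes under TM, 1 coagulation gene was called lower with only the arrays of the comparison, no fold limit, the Y-linked covariate, without the 4 arrays, by the unadjusted t-test and by unadjusted limma (F13b with no fold limit and F7 otherwise). Single arrays left out gave 0 to 1 lower and 0 to 1 higher (F5), and the adjusted t-test called 0 complement genes. With vehicle, 1 coagulation gene (F11) was called lower by the unadjusted t-test and unadjusted limma. In the difference in response, 1 complement gene (Hc) was called lower with trend and robust eBayes, the mean of all probesets, probesets above the median, the Y-linked covariate, without the 4 arrays and without adjustment, and 0 to 1 with single arrays left out. There 1 coagulation gene was higher (F11) without the 4 arrays or without adjustment, 0 to 1 with single arrays left out, and 1 was lower (F7) without adjustment. The cause of these changes was not tested.

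With the animal number as a replicate block, 170 of 170 member results stayed called or stayed uncalled (9 coagulation and 6 complement genes lower in Atf6a-/- livers, 7 and 2 in wild-type livers). The numbers did not pair the animals, since the 12 correlations of same-numbered deviations ran from -0.48 to 0.39, with 4 above 0.1. Centring on Btf3 and Ppia moved the median of all genes with TM to -0.17 in Atf6a-/- and -0.10 in wild-type livers and changed no member's call. The calls over all genes in Atf6a-/- livers were 2387 higher and 1493 lower as deposited, 2014 and 1924 after quantile normalization, and 2154 and 1797 after centring.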
